A study of Mus musculus with 18 samples.

Results

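Very long genes were taken as the protein-coding genes whose genomic span, from the first to the last annotated base in GENCODE M21 on mm10, is 300 kb or more. The annotation holds 567 such genes. Dmd, Rbfox1, Celf2 and the collagen genes Col19a1, Col25a1 and Col4a6 were set aside by the rule, which left 561 of the 47311 genes in the table. The rule uses gene length alone and no measured value. Just inside the limit lay Kcnq3 (300.3 kb), Pam (300.5 kb) and Nxph1 (300.6 kb), and just outside lay Jazf1 (299.8 kb), Akap13 (299.1 kb) and Atp2b2 (298.8 kb).

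The cells were C2C12, an established mouse myoblast line that fuses into multinucleated myotubes. Undifferentiated myoblasts and differentiated myotubes were treated with si-Ctrl (control), with si-Setd2#1 (called siRNA 1) or with si-Setd2#2 (called siRNA 2), giving 6 groups of 3 polyA RNA libraries. The labels number the libraries as biological replicates of 1 line and state that RNA was taken from all of them after the cells had been stretched. No dose, time after transfection or day of differentiation is given in the sources used here. Each library held 43.5 to 66.6 megareads (estimated counts).

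A very long gene takes RNA polymerase II hours to transcribe. Most of its length is intron, so its output depends on elongation without early release, on the untangling of DNA by topoisomerases and on splicing across very distant exons. Such genes are known for roles in adhesion and synapses in neurons, in the contractile and membrane-linking structures of muscle, and at common fragile sites, where replication and transcription of one long unit can meet. Setd2 travels with elongating polymerase and places trimethylation on lysine 36 of histone H3 along gene bodies.

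Setd2 itself, an 86.037 kb gene, was measured first. In myoblasts it stood at 108 ± 10.3 CPM (counts per megaread of library; SD, n = 3) in control cells, 39.2 ± 4.11 with siRNA 1 and 42.8 ± 3.03 with siRNA 2. In myotubes it stood at 106 ± 3.56, 45.6 ± 11.5 and 36.4 ± 2.25. No depleted library reached the lowest control library in either stage, and all 4 falls passed the test (log2 fold changes −1.46, −1.33, −1.2 and −1.54, the largest edgeR adjusted p 0.00299). The summed level of 12 muscle markers was 930 to 1150 CPM in control myoblasts and 20300 to 22000 CPM in control myotubes, so the stage labels hold. That sum was 1200 to 1500 CPM in the depleted myoblasts, most of it from Des. Markers of fat cells summed to 0.13 CPM or less in every library, those of endothelium to 2.67 or less and those of immune cells to 3.13 or less.

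The shift from a short to a long transcript unit was clearest at Palld, which encodes palladin, an actin-bundling scaffold protein. Its 3 starts with RefSeq promoter entries lie on the minus strand of chromosome 8, and each gives rise to transcripts of a different span. The short transcripts Palld-207 (8.7 kb) and Palld-209 (1.0 kb) begin near none of these starts. The 250 bases before each start are shown because the use of these starts differed so widely between the stages. They come from RefSeq promoter entries on GRCm38.p6, and capitals mark E-boxes (CANNTG on either strand), the motif read by MyoD-family proteins.

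Palld start 1, chr8:61902708-61902957: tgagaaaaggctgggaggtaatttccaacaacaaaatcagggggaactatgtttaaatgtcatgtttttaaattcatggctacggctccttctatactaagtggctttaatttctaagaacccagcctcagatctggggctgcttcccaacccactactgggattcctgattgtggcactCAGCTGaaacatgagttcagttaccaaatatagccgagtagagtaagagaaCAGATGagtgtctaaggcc
Palld start 2, chr8:61760090-61760339: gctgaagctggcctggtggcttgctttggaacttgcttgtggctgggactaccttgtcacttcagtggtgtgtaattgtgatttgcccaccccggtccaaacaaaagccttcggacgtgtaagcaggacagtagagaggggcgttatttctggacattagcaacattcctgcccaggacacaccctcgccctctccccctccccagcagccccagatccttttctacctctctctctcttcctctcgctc
Palld start 3, chr8:61591140-61591389: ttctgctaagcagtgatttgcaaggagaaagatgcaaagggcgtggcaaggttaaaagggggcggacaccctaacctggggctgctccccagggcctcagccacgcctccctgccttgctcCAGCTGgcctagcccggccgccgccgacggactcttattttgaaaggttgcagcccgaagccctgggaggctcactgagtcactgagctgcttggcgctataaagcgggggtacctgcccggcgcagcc

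Start 1 is the outermost and opens transcripts of up to 391 kb. Its 2 transcripts summed to 1.64, 0.968 and 0.691 TPM, a level corrected for transcript length, in the control myoblasts and to 158, 175 and 142 TPM in the control myotubes. Start 2, with transcripts of up to 249 kb, gave 9.73 TPM on average in control myoblasts and 7.39 TPM in control myotubes. Start 3, with transcripts of up to 79.7 kb, gave 24.6 ± 0.882 TPM and 21 ± 4.5 TPM (SD, n = 3). The long unit thus separated the stages in every library, and the means of starts 2 and 3 differed by far less. Start 2 was also lower in every control myotube library (6.05, 7.73 and 8.39 TPM) than in any control myoblast library (9.08 TPM or more). As shares of Palld counts, the long unit went from 5.1% (3.32 to 7.42% over libraries) to 90% (87.3 to 91.6%), and start 3 from 58.6% to 6.42%.

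The window before start 1 held 2 E-boxes, 70 and 19 bases upstream, and only 2 CG pairs. Start 2 had no E-box and 6 CG pairs, and start 3 had 1 E-box, 129 bases upstream, and 13 CG pairs. Any CANNTG occurs in 66.2% of the 32851 mouse promoters of this length, CAGCTG in 13%, and a CG pair in 92.1%, so a match describes the letters and is no evidence of a bound site.

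**Figure D1:**
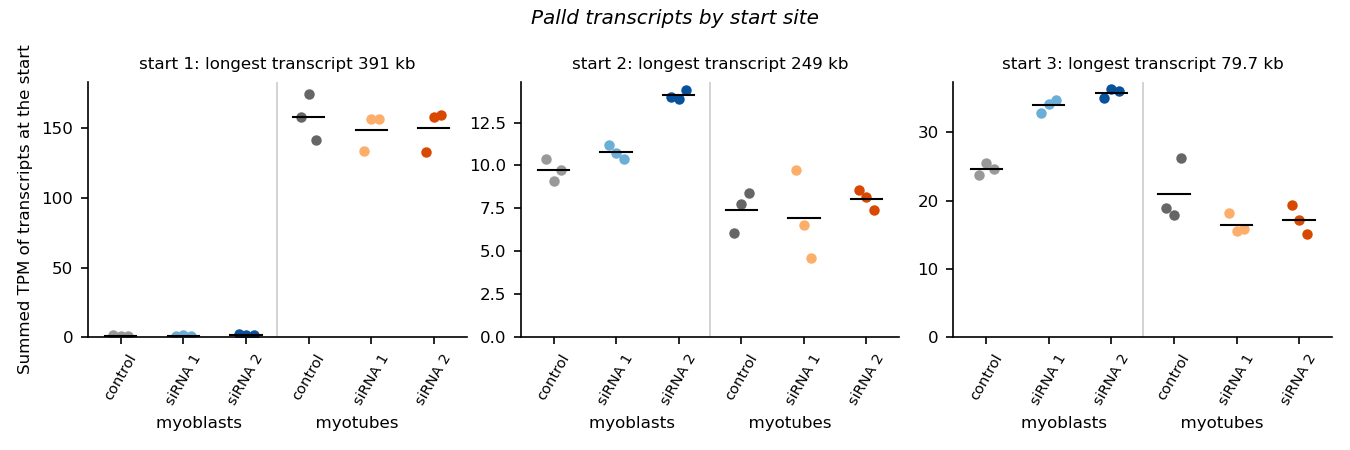
TPM summed over the transcripts of each Palld start (linear axes that differ between panels), by stage and siRNA; points are the 3 libraries of each group and horizontal lines their means. Start 1 lies between 0.691 and 2.31 TPM in all myoblast libraries and between 133 and 175 TPM in all myotube libraries. The ranges of starts 2 and 3 overlap between the stages only when the treatments are pooled or, for start 3, in control cells. Within each treatment start 2 is lower in myotubes without overlap, and so is start 3 with either siRNA.

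Of the 561 very long genes, 42 had no count in any library and 216 were too low to be tested in either stage. The filter on low counts left 300 for the tests in myoblasts, 331 in myotubes and 346 in the fit of all libraries. Counts of called genes below refer to those tested genes, and a gene may have been tested through the group in which it is high. A mean of 1 CPM or more over the libraries was reached by 264 genes, 10 CPM by 181 and 100 CPM by 38. The 346 tested genes had a median span of 414.7 kb, a median longest intron of 114 kb, 15.5 exons and 5157 bases of mature RNA. The 3768 tested genes of 20 to 50 kb, used for comparison, had medians of 30.72 kb, 8.65 kb, 9.96 exons and 3092 bases. Their median level was 32.2 CPM, against 11.2 CPM for the very long genes, so comparisons between both classes were also made within bins of like expression.

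The annotated span overstates the unit in use for some members. In 261 of the 346 genes at least 50% of the counts came from transcripts of 300 kb or more, and in 181 at least 90% did. In 58 genes under 10% did. The longest model, Gm20388 (4435 kb on chromosome 8, 1 transcript with an intron of 4380 kb), runs across many other genes. It ranged from 0.0194 to 29.2 CPM among the myotube libraries with no order by group, and passed no test. Fgfr2, a fibroblast growth factor receptor annotated at 2961 kb, had 10.1% of its counts in long transcripts.

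The first comparison, between the control libraries of both stages, asked how very long genes differ between myoblasts and myotubes. Very long genes made up 1.172 ± 0.027% of all counts in control myoblasts and 1.881 ± 0.056% in control myotubes (SD, n = 3), with no overlap between libraries. Macf1, which encodes a giant protein linking microtubules and actin, held 0.101% and 0.3% of all counts, and without it the shares were 1.071% and 1.582%. Outside the 10 most counted members (Macf1, Dst, Utrn, Zbtb20, Cacna2d1, Lpp, Msi2, Cdh13, Snd1 and Palld) they were 0.829% and 1.084%. In bulk RNA, a change in the share of cells of one kind and a change in RNA per cell cannot be told apart. The prefixes of the library names differ between the stages, so stage and prefix cannot be told apart in this comparison either.

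**Figure D2:**
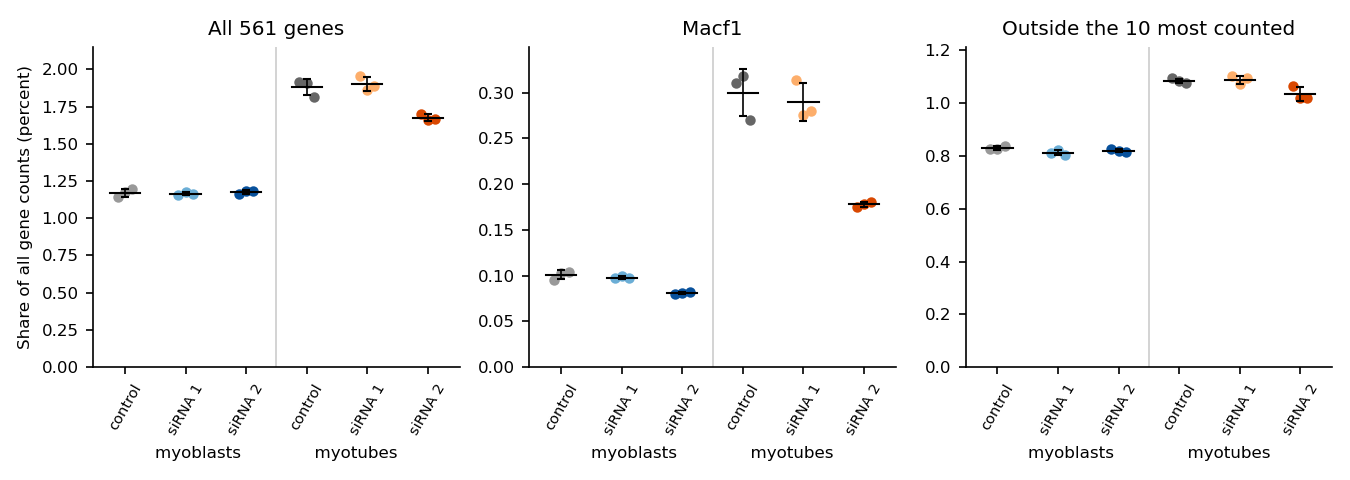
Share of all counts (percent) from the 561 very long genes, from Macf1, and from members outside the 10 most counted, by group; horizontal lines are means of 3 libraries, error bars SD and points libraries. All 3 shares are higher in control myotubes than in control myoblasts, and the Macf1 share is lower with siRNA 2 than in control cells in both stages.

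Of the 346 tested very long genes, 206 rose (59.5%) and 91 fell (26.3%) in myotubes, at an edgeR adjusted p under 0.05. Over all 16930 genes tested, 39.4% rose and 38.1% fell, and over those of 20 to 50 kb 40.8% rose and 43.3% fell. The median log2 difference was 0.584 for very long genes, −0.024 for genes of 20 to 50 kb and 0.004 for all genes. The share that rose was 40.6% under 20 kb, 41.9% at 50 to 100 kb and 48.8% at 100 to 300 kb. On the TPM scale, which corrects for the transcripts in use, 174 rose (59.8%) and 77 fell (26.5%) among 291 very long genes, and 38.2% and 37.2% over all genes.

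In each of 5 bins of expression a larger share of very long genes rose than of genes of 20 to 50 kb. In the lowest bin, under 0 on the log2 CPM scale, 48.8% of 82 very long genes rose against 43.0% of the shorter class. At 4 to 6 on that scale, 64.3% of 98 rose against 38.5%, and above 6, 65.5% of 55 against 38.8%. Across these bins the median difference between the classes was 0.481 (log2) and lay between 0.462 and 0.522 when any 1 library was left out. Within the very long genes, span and log2 difference were only weakly related (Spearman 0.073 across 346 genes, which are not independent).

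**Figure D3:**
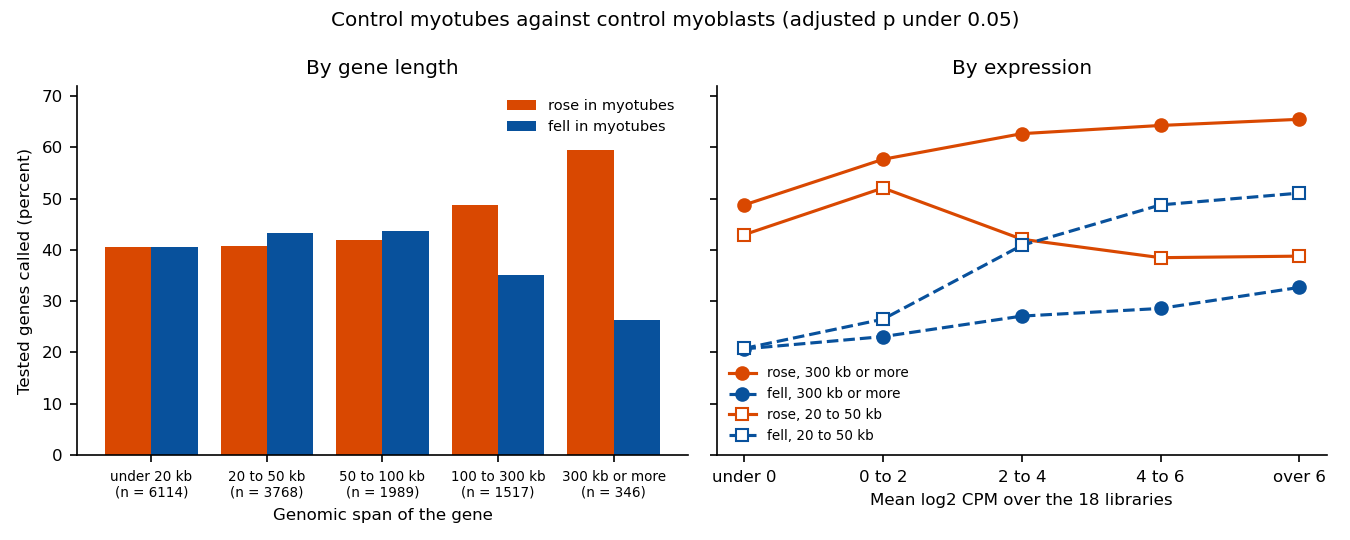
Percent of tested genes that rose or fell in control myotubes against control myoblasts, by genomic span and, for very long genes and genes of 20 to 50 kb, by bins of mean log2 CPM. The share that rose climbs from 40.6% under 20 kb to 59.5% at 300 kb or more.

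By role, lists assigned from gene names and textbook function covered 356 of the 561 genes. Cytoskeletal and muscle structure genes rose in 15 and fell in 3 of 20 tested (median log2 difference 1.12), and genes counted as fragile sites or tumour suppressors rose in 11 and fell in 2 of 13 (median 1.11). Ion channels and receptors rose in 19 and fell in 7 of 35 (median 1.05), and adhesion and axon guidance genes rose in 27 and fell in 13 of 44 (median 0.86). Matrix and proteoglycan genes rose in 9 and fell in 5 of 16 (median 0.47). Signalling enzymes were near balance, with 20 up and 16 down of 45, as were transcription and chromatin factors, with 19 up and 17 down of 41. Genes on no list rose in 83 and fell in 28 of 129. Over all genes tested 39.4% rose and 38.1% fell, and no role was tested as a set.

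Members of the contractile and membrane-linking apparatus stood among those with large rises. Trdn (396.2 kb), whose product triadin anchors the calcium release complex of the sarcoplasmic reticulum, was at 0.199, 0.0367 and 0.0353 CPM in control myoblasts and at 25, 23 and 22.5 CPM in control myotubes. Limch1, a regulator of non-muscle myosin, was at 0.0183 CPM or less in the control myoblasts and at 15.5 ± 0.789 CPM in control myotubes, with 0.792% of its counts in long transcripts. Sgcd (1093 kb), the delta subunit of the sarcoglycan complex, rose from 4.47 ± 0.509 to 15.1 ± 1.49 CPM (log2 difference 1.75, SE 0.1, adjusted p 1.31e-12).

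Macf1 and Dst, both cytoskeletal crosslinkers, were the most counted members. Macf1 stood at 900, 982 and 999 CPM in control myoblasts and at 3150, 3230 and 2660 CPM in control myotubes, a rise of 1.65 on the log2 CPM scale and of 0.70 on the log2 TPM scale. Dst, the related spectraplakin dystonin, rose from 923 ± 98.3 to 2060 ± 155 CPM (1.16, SE 0.08). Sorbs2, a Z-disc and adhesion scaffold, rose from 82.3 ± 4.18 to 281 ± 30.4 CPM (1.77, SE 0.07).

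Channel and adhesion genes moved by large factors as well. Cacna2d1 (439.8 kb), the alpha2-delta subunit of the muscle L-type calcium channel, was at 85.9, 93.3 and 91.7 CPM in control myoblasts and 423, 371 and 384 CPM in control myotubes (log2 difference 2.12, SE 0.05, adjusted p 7.08e-19). Cdh13 (1041 kb), a GPI-anchored cadherin, rose from 37.8 ± 1.52 to 404 ± 22.9 CPM (3.42, SE 0.05, adjusted p 3.63e-21). Ptprd (2271 kb; chr4:75941238-78211961, minus strand), a receptor tyrosine phosphatase of cell adhesion, rose from 34.6 ± 1.99 to 106 ± 6.9 CPM (1.62, SE 0.07). The groups of control libraries did not overlap for any of these genes.

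Several of the largest rises lay outside textbook muscle genes. Pkhd1 (560.3 kb), which encodes the ciliary protein fibrocystin, was at 0.149, 0.11 and 0.0706 CPM in control myoblasts and at 73.3, 69 and 63.1 CPM in control myotubes (log2 difference 9.24, SE 0.15, adjusted p 3.35e-20), with 99.3% of its counts in long transcripts. Inpp4b (785.4 kb), a phosphoinositide phosphatase, went from 0.313 ± 0.0462 to 58.7 ± 3.78 CPM (7.53, SE 0.27). The basement membrane protein gene Fras1 went from 0.14 ± 0.0105 to 12.7 ± 0.955 CPM (6.48), Frmd4b, a scaffold of cell polarity, from 0.198 ± 0.167 to 14.9 ± 0.216 CPM (6.18), and Adamtsl1, a secreted matrix protein, from 0.747 ± 0.178 to 32.3 ± 1.15 CPM (5.42). Fgf13, an intracellular FGF-family protein that binds sodium channels, was at 0.00588 ± 0.0102 and 3.14 ± 0.464 CPM, and Otud7a, a deubiquitinase, at 0.0181 ± 0.0183 and 4.02 ± 0.425 CPM. The fibroblast marker sum also differed between these stages, from 11.9 to 12.2 CPM in control myoblasts to 96.3 to 102 CPM in control myotubes. Of its 6 genes Dcn went from 4.0 to 89.8 CPM and Pdgfra from 8.0 to 9.56 CPM, the others were below 1 CPM and Tcf21 had no count. The part of these markers in the matrix genes was not tested.

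Among the genes known from common fragile sites, Wwox, an oxidoreductase and tumour suppressor, rose from 3.51 to 6.98 CPM (log2 difference 0.99, adjusted p 1.37e-09). Immp2l, a mitochondrial inner membrane peptidase, rose from 0.483 to 0.966 CPM (0.99, adjusted p 0.000284). Fhit had no count in any control library. Higher-level members placed in the same list rose too, such as Fto, an RNA demethylase (89.4 ± 0.638 to 201 ± 6.13 CPM), and Exoc4, a subunit of the exocyst (82.1 ± 0.453 to 177 ± 5.67 CPM). The 3 tested genes on the RNA-binding list rose, namely Msi2 (1.52), Rbms3 (1.26) and the exonuclease gene Dis3l2 (0.75, all log2).

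The falls included genes of the cell cycle. Pola1 (327.4 kb on chromosome X), the catalytic subunit of DNA polymerase alpha, was at 80.8, 77.9 and 79.1 CPM in control myoblasts and at 18.9, 19.8 and 20.1 CPM in control myotubes (log2 difference −2.02, SE 0.04, adjusted p 3.81e-19). Diaph3 (485.9 kb), an actin-nucleating formin that acts in cytokinesis, fell from 156 ± 3.08 to 28 ± 1.51 CPM (−2.48, SE 0.05, adjusted p 5.09e-20). Mad1l1, a spindle checkpoint protein, fell from 53.1 ± 0.87 to 24.4 ± 0.301 CPM (−1.12, SE 0.06). Both groups of control libraries were clear of each other for these genes.

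Other falls were spread over roles. Camk1d, a calcium/calmodulin kinase, fell from 20.6 ± 1.01 to 3.12 ± 0.188 CPM (−2.72), and Csgalnact1, an enzyme that starts chondroitin sulfate chains, from 59.1 ± 1.23 to 15.1 ± 0.853 CPM (−1.97). Cacnb2, a calcium channel beta subunit, fell from 5.09 ± 0.987 to 1.05 ± 0.141 CPM (−2.26), which was opposite in direction to Cacna2d1. Ltbp1, which holds latent TGF-beta in the matrix, fell from 293 ± 8.88 to 125 ± 1.9 CPM (−1.23). At lower levels Nell2, Shank2 and Prkcb fell by 3.55, 2.92 and 2.1 on the log2 scale.

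**Figure D4:**
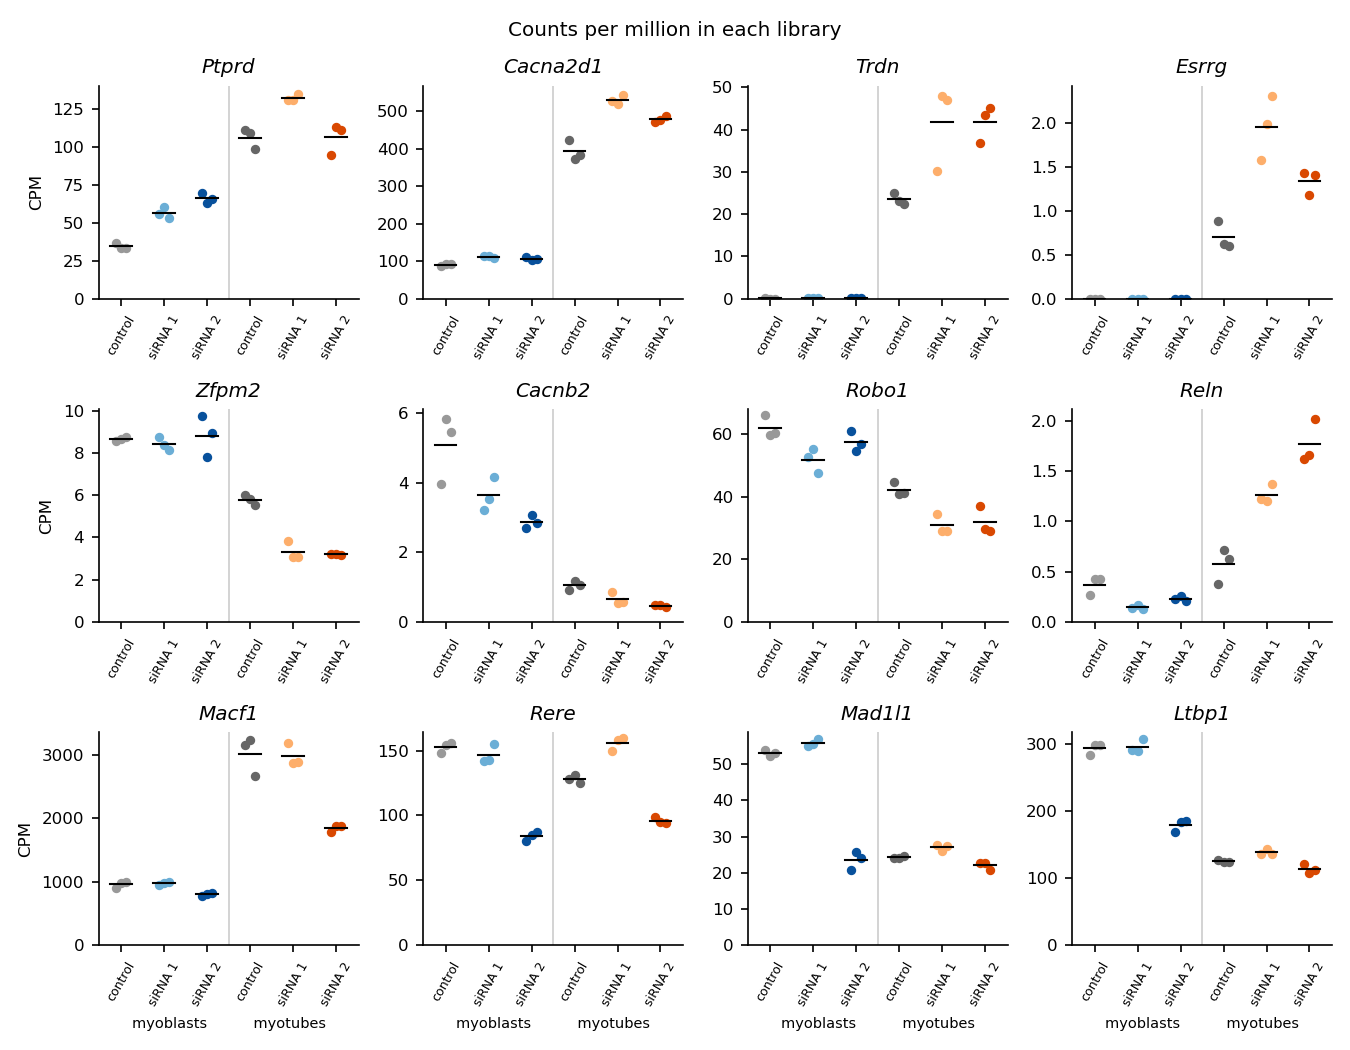
CPM of 12 very long genes (linear axes from 0 that differ between panels) in each of the 18 libraries, by stage and siRNA; points are libraries and horizontal lines are group means. Trdn and Esrrg lie at or near 0 in myoblasts and well above it in myotubes, and Rere, Mad1l1, Ltbp1 and Macf1 fell with siRNA 2 in myoblasts and passed no test there with siRNA 1.

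The span in use was compared between stages in the 233 members with 1 CPM or more in both control groups. In 208 the share of counts from transcripts of 300 kb or more differed by less than 10 percentage points, with 121 above 90% in both stages and 40 below 10% in both. It was higher in myotubes by at least 10 points in 15 members and lower in 10. Besides Palld, it was 61.8% and 89.9% for Cep112, a centrosomal protein gene, 16.7% and 43.2% for the protocadherin gene Pcdh7 and 2.38% and 16.1% for Macf1. In the other direction it was 80.8% (79.3 to 82.5% over libraries) and 48.7% (46.9 to 49.7%) for Ank3, the membrane-skeleton adaptor ankyrin-G. For Slc8a1, a sodium-calcium exchanger gene, it was 100% in myoblasts and 0 to 39.2% over the control myotube libraries, so that value was unstable.

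With Setd2 siRNA few of these shares moved. A difference of at least 10 points from control was seen in 4 members with siRNA 1 and 6 with siRNA 2 in myoblasts, and in 5 with each siRNA in myotubes. The Palld long unit held 4.15% and 6.16% of Palld counts in depleted myoblasts and 91.0% and 90.4% in depleted myotubes. Such shares come from the division of reads among overlapping transcripts by the authors' quantification and carry its error.

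**Figure D5:**
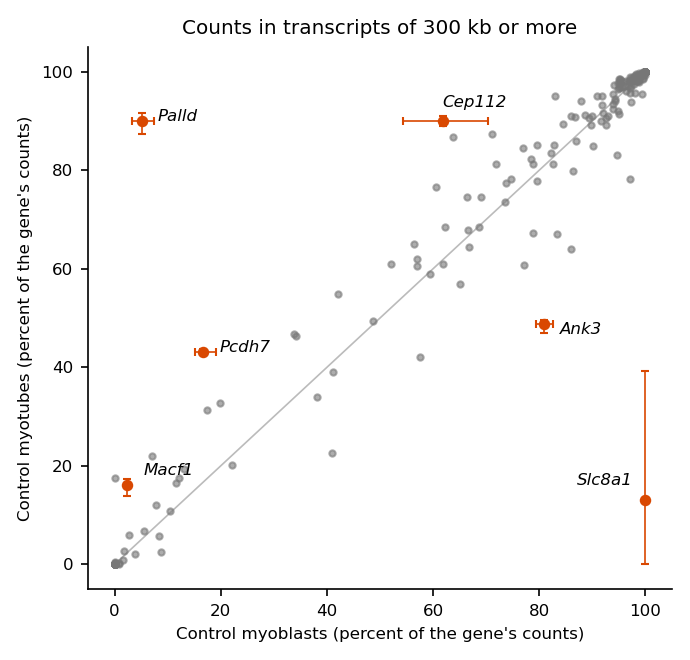
Share of counts from transcripts of 300 kb or more (percent) in control myoblasts and control myotubes, for members with 1 CPM or more in both; points are means of 3 libraries and bars the lowest and highest library. Most of the 233 members lie near the diagonal, and Palld goes from 5.1% to 90%.

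Depletion of Setd2 was compared with control within each stage, 1 siRNA at a time, to see how very long genes respond when the enzyme is reduced. In myoblasts with siRNA 1, 44 of the 300 tested very long genes rose (14.7%) and 23 fell (7.67%), where over all 15586 genes tested 11.6% rose and 8.44% fell. With siRNA 2, 56 rose (18.7%) and 26 fell (8.67%), where over all genes 17.1% rose and 16.5% fell. Genes of 20 to 50 kb rose in 13.8% and fell in 11.2% with siRNA 1, and rose in 20.1% and fell in 22.5% with siRNA 2. The median log2 differences were small, at 0.047 and 0.076 for very long genes, 0.002 and −0.007 for the shorter class and 0.005 and 0.0 for all genes.

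The split between rises and falls depended on the scale, for very long genes and for all genes alike. On the TPM scale 15 rose (5.86%) and 19 fell (7.42%) of 256 with siRNA 1, where over all 14448 genes tested 5.12% rose and 13.3% fell. With siRNA 2 on that scale 34 rose (13.3%) and 27 fell (10.5%), where over all genes 11.0% rose and 19.0% fell. With the library name prefix, whose meaning is not given, as a term in the model, 71 rose (23.7%) and 39 fell (13%) with siRNA 1, where over all genes 18.0% rose and 14.3% fell. In that model 97 rose (32.3%) and 43 fell (14.3%) with siRNA 2, where over all genes 23.7% rose and 22.6% fell. The prefixes were spread unevenly over the groups of either stage, and the fold changes given for named genes come from fits without this term. Without control replicate 3, siRNA 1 gave 43 calls, 32 up and 11 down, in place of 67. In bins of like expression the median difference from the 20 to 50 kb class was 0.053 with siRNA 1 and 0.067 with siRNA 2. Values moving with the depletion in myoblasts were the muscle marker sum given above and the share of 2 ribosomal-RNA-like gene models, 1.198 to 1.362% in control libraries, 3.564 to 3.909% with siRNA 1 and 1.457 to 4.097% with siRNA 2. Their part in the results was not tested.

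The same 25 genes rose with each siRNA in myoblasts (8.33% of 300) and 6 fell (2.0%). Over all genes 7.69% rose and 4.25% fell with each, and both comparisons share the control libraries. On the TPM scale 9 rose (3.52%) and 5 fell (1.95%), against 3.72% and 6.76% of all genes. With the library name prefix in the model 51 rose (17.0%) and 14 fell (4.67%), against 11.8% and 8.03% of all genes.

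Ptprd ranked first by the smaller of its rises with the 2 siRNAs. It was at 36.9, 33.2 and 33.6 CPM in control myoblasts, at 55.9, 60.2 and 52.9 CPM with siRNA 1 and at 69.6, 63.1 and 65.9 CPM with siRNA 2. All 6 depleted libraries lay above all controls (log2 differences 0.71, SE 0.06, adjusted p 8.17e-06, and 0.94, SE 0.06, adjusted p 3.1e-07).

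Ust, which sulfates uronic acid in chondroitin chains, was at 14.7, 15.7 and 15.9 CPM in control myoblasts, at 24.5, 24.5 and 25.1 CPM with siRNA 1 and at 20.2, 21.6 and 21.3 CPM with siRNA 2. It rose by 0.68 and 0.45 (log2; adjusted p 1.43e-06 and 1.6e-05). Palld was at 52.2, 50.4 and 49.8 CPM in control myoblasts, at 65.9, 67.2 and 68.1 CPM with siRNA 1 and at 76.3, 75.2 and 78.5 CPM with siRNA 2. It rose by 0.41 and 0.6 (log2). By start, start 3 averaged 24.6 TPM in controls and 34.0 and 35.8 TPM with siRNA 1 and 2. Start 2 averaged 9.73, 10.8 and 14.1 TPM, and start 1 averaged 1.1, 1.12 and 1.93 TPM.

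The other genes that led the rises had varied roles. Slc4a4, a sodium bicarbonate cotransporter, rose from 1.85 ± 0.234 to 2.89 ± 0.375 and 3.2 ± 0.322 CPM, and Galnt18, a glycosyltransferase-family gene, from 3.37 ± 0.575 to 5.22 ± 0.556 and 5.23 ± 0.458 CPM. Pde10a, a cyclic nucleotide phosphodiesterase, rose by 0.6 and 0.62, and the forkhead repressor gene Foxn3 by 0.41 and 0.54 (log2), though under 1% of the counts of either came from transcripts of 300 kb or more. Sgcd rose by 0.37 and 0.53. Its siRNA 1 call ended on leaving out control replicate 1 or 3, siRNA 1 replicate 1 or 2 or siRNA 2 replicate 3 (adjusted p up to 0.139).

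The 6 falls in myoblasts were Ptprk, Arhgap6, Dlc1, Cacnb2, Gse1 and Cask. Arhgap6 and Dlc1 both encode GTPase-activating proteins. Arhgap6 fell from 4.25 ± 0.982 to 2.1 ± 0.251 and 2.4 ± 0.577 CPM (−1.01 and −0.83), and Dlc1 from 25.3 ± 0.619 to 18.3 ± 1.01 and 21.7 ± 0.685 CPM (−0.46 and −0.21). Only 0.349% and 0.253% of their counts came from transcripts of 300 kb or more.

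Cacnb2 fell by 0.48 and 0.82 (log2) in myoblasts, and Gse1, a gene of little-known function, by 0.21 and 0.5. The siRNA 1 call of Cacnb2 ended without control replicate 2 or 3, siRNA 1 replicate 1 or 2 or siRNA 2 replicate 3 (adjusted p up to 0.145), and that of Gse1 without control replicate 2 or 3 or siRNA 1 replicate 1 or 2 (up to 0.0684). Cask, a membrane-associated scaffold kinase, and Ptprk, a receptor phosphatase of the adhesion group, each fell by 0.14 to 0.19 with either siRNA.

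By role, adhesion and axon guidance genes rose in 11 and fell in 3 of 41 with siRNA 2, and rose in 4 and fell in 4 with siRNA 1. The summed level of 9 neuronal markers lay between 197 and 211 CPM in the controls, between 233 and 240 CPM after siRNA 1 and between 286 and 289 CPM after siRNA 2. Tubb3 (136, 159 and 207 CPM) and Stmn2 (57.5, 67.7 and 70.4 CPM) made up most of it, Map2 averaged 8.41 to 10.3 CPM, and Rbfox3, Snap25, Syt1, Elavl3, Gad1 and Slc17a7 were below 1 CPM. The part of these markers in the adhesion count was not tested. Transcription and chromatin factors rose in 5 and fell in 1 of 38 with siRNA 1, and rose in 9 and fell in 4 with siRNA 2. Cytoskeletal and muscle structure genes rose in 5 and fell in 2 of 19 with siRNA 1, and rose in 4 and fell in 1 with siRNA 2. Over all genes 11.6% rose and 8.44% fell with siRNA 1, and 17.1% rose and 16.5% fell with siRNA 2. No role was tested as a set.

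In myotubes with siRNA 1, 65 of 331 tested very long genes rose (19.6%) and 44 fell (13.3%), where over all 16097 genes 11.0% rose and 9.57% fell. With siRNA 2, 62 rose (18.7%) and 71 fell (21.5%), where over all genes 15.8% rose and 16.4% fell. In genes of 20 to 50 kb 12% rose and 12.6% fell with siRNA 1, and 17.0% rose and 20.8% fell with siRNA 2. The median log2 differences were small, at 0.031 and 0.015 for very long genes and −0.008 and −0.024 for the shorter class.

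On the TPM scale the split with siRNA 1 was 21 up (7.5%) and 36 down (12.9%) of 280, where over all 15159 genes tested 5.02% rose and 11.5% fell. With siRNA 2 it was 22 up (7.86%) and 82 down (29.3%), where over all genes 8.02% rose and 24.4% fell. With the library name prefix in the model 80 rose (24.2%) and 54 fell (16.3%) with siRNA 1, against 14.6% and 12.8% of all genes. In that model 72 rose (21.8%) and 80 fell (24.2%) with siRNA 2, against 18.3% and 19.4% of all genes. Leaving out siRNA 1 replicate 3 reduced the siRNA 1 calls from 109 to 68 (44 up, 24 down). In bins of like expression the difference from the shorter class was 0.068 with siRNA 1 and 0.031 with siRNA 2. Very long genes took up 1.901 ± 0.049% of all counts with siRNA 1 and 1.675 ± 0.024% with siRNA 2, against 1.881 ± 0.056% in control myotubes. Macf1 accounted for 0.29%, 0.178% and 0.3% of all counts in those groups, and outside the 10 most counted genes the shares were 1.088%, 1.035% and 1.084%.

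With each siRNA in myotubes 35 genes rose (10.6% of 331) and 25 fell (7.55%), where over all genes 7.14% rose and 6.27% fell. On the TPM scale 9 rose (3.21%) and 24 fell (8.57%), against 2.96% and 8.36% of all genes. With the library name prefix in the model 45 rose (13.6%) and 33 fell (9.97%), against 9.37% and 8.39% of all genes. Both comparisons again share their controls.

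The largest rises in myotubes were in genes of low level. Reln, a secreted signal of neuronal migration, was at 0.373, 0.718 and 0.622 CPM in control myotubes, at 1.22, 1.2 and 1.37 CPM with siRNA 1 and at 1.62, 1.66 and 2.02 CPM with siRNA 2 (log2 differences 1.12, adjusted p 0.00343, and 1.59, adjusted p 0.000153). Esrrg, an orphan nuclear receptor that drives oxidative metabolism, had no count in control or depleted myoblasts. It was at 0.885, 0.626 and 0.602 CPM in control myotubes, at 1.57, 1.98 and 2.3 CPM with siRNA 1 and at 1.43, 1.18 and 1.41 CPM with siRNA 2. In both genes every depleted library lay above every control library.

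Atp8a2, a phospholipid flippase, went from 0.0848 ± 0.0195 to 0.406 ± 0.00344 and 0.673 ± 0.217 CPM in myotubes. Dpp6, an auxiliary subunit of potassium channels, went from 0.123 ± 0.057 to 0.613 ± 0.0757 and 0.466 ± 0.0348 CPM. Zfp385b, a zinc finger gene, rose from 0.439 ± 0.0622 to 1.15 ± 0.263 and 1.71 ± 0.29 CPM. Hydin, a protein of motile cilia, stayed below 1 CPM on average in every group, and its siRNA 2 call ended without control replicate 2 or 3 or siRNA 2 replicate 2 (adjusted p up to 0.0979). Pdzrn4 and Ankfn1, both also below 1 CPM on average, rose with each siRNA too.

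At higher levels the rises included muscle calcium handling genes. Cacna2d1 was at 423, 371 and 384 CPM in control myotubes, at 526, 520 and 544 CPM with siRNA 1 and at 472, 476 and 488 CPM with siRNA 2 (0.44, SE 0.05, adjusted p 0.000114, and 0.28, adjusted p 0.000839). Trdn was at 25, 23 and 22.5 CPM in control myotubes, at 30.1, 47.9 and 47 CPM with siRNA 1 and at 36.9, 43.5 and 45 CPM with siRNA 2 (0.83 with each, adjusted p 0.0175 and 0.0112). The siRNA 1 call of Trdn ended without control replicate 2 or 3 or siRNA 1 replicate 2 or 3 (adjusted p up to 0.0659). Depleted libraries did not overlap the controls for either gene, and the muscle marker sum was 23400 to 23500 CPM with siRNA 1 and 21700 to 24000 CPM with siRNA 2.

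Sgcd, Frmd4b and Adamtsl1 also rose with each siRNA. Sgcd rose from 15.1 ± 1.49 to 21.8 ± 0.576 and 27.1 ± 2.5 CPM (0.54 and 0.85), Frmd4b from 14.9 ± 0.216 to 26.9 ± 1.15 and 24.4 ± 2.06 CPM (0.85 and 0.7), and Adamtsl1 from 32.3 ± 1.15 to 41.3 ± 3.57 and 41 ± 2.05 CPM (0.36 and 0.34). Fras1 was at 13.8, 12.2 and 12.1 CPM in control myotubes, at 23.4, 23.1 and 22.5 CPM with siRNA 1 and at 15.2, 17.5 and 16 CPM with siRNA 2. It rose more with siRNA 1, and the fibroblast marker sum was 130 to 139 CPM there, against 96.3 to 102 in control myotubes and 84.4 to 99.9 with siRNA 2. Dcn made up most of that sum (89.8 CPM in control myotubes, 125 with siRNA 1 and 84.5 with siRNA 2), and Pdgfra stood at 9.56, 10.6 and 8.53 CPM. The part of these markers was not tested.

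Zfpm2 (449.6 kb; chr15:40655035-41104592), a cofactor of GATA factors, was at 5.99, 5.83 and 5.56 CPM in control myotubes, at 3.84, 3.06 and 3.09 CPM with siRNA 1 and at 3.21, 3.23 and 3.19 CPM with siRNA 2. It fell by 0.79 and 0.85 (log2; adjusted p 0.000359 and 9.43e-05), with no overlap of libraries. Cdh18, a classical cadherin gene of 925.4 kb, was at 21, 21.1 and 20.1 CPM in control myotubes, at 11.9, 8.51 and 8.92 CPM with siRNA 1 and at 13.5, 9.89 and 11.2 CPM with siRNA 2 (−1.08 and −0.85, adjusted p 0.00123 and 0.00213). Ndst4, a heparan sulfate sulfotransferase, fell from 3.72 ± 0.573 to 1.91 ± 0.293 and 1.35 ± 0.283 CPM.

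Robo1, an axon guidance receptor, fell from 42.4 ± 2.12 to 30.9 ± 3.19 and 31.9 ± 4.42 CPM in myotubes. Its siRNA 1 call ended without control replicate 1 or 3 or siRNA 1 replicate 2 or 3 (adjusted p up to 0.0766), and its siRNA 2 call without control replicate 1 or siRNA 2 replicate 2 or 3 (up to 0.075). Dock4, an activator of Rac, fell by 0.41 and 0.42, and Cacnb2 by 0.66 and 1.18 (log2). The siRNA 1 call of Cacnb2 ended without any 1 of the 3 control libraries, siRNA 1 replicate 2 or 3 or siRNA 2 replicate 2 or 3 (adjusted p up to 0.159). The predicted gene Gm45062 fell by 0.79 and 1.63, and the first of these calls ended without siRNA 1 replicate 3 (adjusted p 0.0501).

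Pola1 and Diaph3, which fell between the stages, were also lower in depleted than in control myotubes. Pola1 was at 18.9, 19.8 and 20.1 CPM in control myotubes, at 15, 14.6 and 14.9 CPM with siRNA 1 and at 14.3, 15.4 and 13.9 CPM with siRNA 2 (−0.4 and −0.43, adjusted p 0.000343 and 8.39e-05). Diaph3 was at 26.2, 28.7 and 29 CPM in control myotubes, at 20, 22.5 and 21.9 CPM with siRNA 1 and at 19.9, 22.2 and 21 CPM with siRNA 2 (−0.38 and −0.41). Every depleted library was below every control library for both genes. In myoblasts Pola1 passed no test with either siRNA.

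By role in myotubes, ion channels and receptors rose in 10 and fell in 4 of 33 with siRNA 1, and rose in 7 and fell in 4 with siRNA 2. Transcription and chromatin factors rose in 7 and fell in 8 of 40 with siRNA 1, and rose in 13 and fell in 8 with siRNA 2. Cytoskeletal and muscle structure genes rose in 7 and fell in 3 of 20 with siRNA 1, and rose in 5 and fell in 7 with siRNA 2. Genes on no role list rose in 21 and fell in 13 of 124 with siRNA 1, and rose in 19 and fell in 31 with siRNA 2. Over all genes 11.0% rose and 9.57% fell with siRNA 1, and 15.8% rose and 16.4% fell with siRNA 2. No role was tested as a set.

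Across both stages, 10 very long genes were called with each siRNA in both stages, with 1 direction within a stage, 32.3% of the 31 so called in myoblasts and 16.7% of the 60 in myotubes. Over all genes tested, 427 were called with each siRNA in both stages, 22.9% of the 1861 in myoblasts and 19.8% of the 2160 in myotubes, and 130 of them had opposite directions. For genes of 20 to 50 kb the overlap was 132 genes, 23.4% and 22.5%, with 46 in opposite directions. The stages have separate control libraries. Cacna2d1, Foxn3, Schip1 and Sgcd rose in both stages and Cacnb2 fell in both. The other 5 rose in myoblasts and fell in myotubes, among them Cdk14, Diaph3, Foxp1 and Ust. Schip1, Cdk14 and Foxp1 were singled out here after their values were seen.

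The genes that moved in opposite directions did so by modest amounts. Ust was at 11.2, 11.4 and 12.5 CPM in control myotubes, at 8.85, 8.26 and 8.19 CPM with siRNA 1 and at 10.6, 8.99 and 7.88 CPM with siRNA 2, below all controls in each depleted library. Its siRNA 2 call in myotubes ended without control replicate 3 or siRNA 2 replicate 2 or 3 (adjusted p up to 0.0606). Cdk14, a cyclin-dependent kinase of 616.9 kb, went from 77.9 ± 0.919 to 92.7 ± 1.58 and 103 ± 0.878 CPM in myoblasts and from 52.6 ± 1.49 to 45.5 ± 1.04 and 44.4 ± 2.08 CPM in myotubes.

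Foxp1, a forkhead repressor, went from 66.7 ± 3.24 to 79.1 ± 2.88 and 73.3 ± 2.43 CPM in myoblasts and from 54.2 ± 0.177 to 45.6 ± 1.34 and 44.8 ± 1.69 CPM in myotubes. In these 4 named genes the stage difference was log2 −0.98 for Ust, −0.58 for Diaph3, −0.55 for Cdk14 and −0.45 for Foxp1 (the largest edgeR adjusted p 2.93e-06). They were picked for opposite calls in the same libraries, so this test was nearly bound to pass and adds no support.

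The stage difference was tested in all 346 genes as the mean effect of both siRNAs in myotubes minus that in myoblasts. It was higher in myotubes in 34 genes (9.83%) and lower in 62 (17.9%), where over all 16930 genes 10.6% were higher and 12.8% lower, and in genes of 20 to 50 kb 13.6% and 16.8%. The median was −0.061 for very long genes, −0.008 for the shorter class and −0.004 for all genes. On the TPM scale 20 were higher (6.87%) and 48 lower (16.5%), against 7.76% and 11.9% of all genes. With the library name prefix in the model 48 were higher (13.9%) and 86 lower (24.9%), against 14.3% and 17.7% of all genes.

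Both siRNAs were also compared with each other, a comparison in which Setd2 was low on both sides. In myoblasts 38 very long genes were higher with siRNA 2 (12.7%) and 40 lower (13.3%), where over all genes 12.1% were higher and 14.3% lower. Measured in TPM, 30 were higher (11.7%) and 20 lower (7.81%), against 11.5% and 9.89% of all genes. In myotubes 34 were higher (10.3%) and 54 lower (16.3%), where over all genes 7.76% were higher and 9.36% lower, and on the TPM scale 19 (6.79%) and 43 (15.4%), against 4.39% and 9.02% of all genes.

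Some of the largest falls belonged to siRNA 2 alone. Mad1l1 was at 53.9, 52.2 and 53.1 CPM in control myoblasts, at 55.2, 55.6 and 57 CPM with siRNA 1 and at 20.7, 25.7 and 24.1 CPM with siRNA 2. The difference of siRNA 2 from siRNA 1 was −1.25 on the log2 scale (SE 0.06, adjusted p 7.82e-08). Rere, a transcriptional corepressor, was at 148, 154 and 156 CPM in control myoblasts, at 142, 143 and 155 CPM with siRNA 1 and at 80.1, 85.1 and 87.6 CPM with siRNA 2. In myotubes Rere rose with siRNA 1 (0.29) and fell with siRNA 2 (−0.42), a difference of −0.71 between them (adjusted p 2.44e-07).

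Ltbp1 was at 283, 298 and 299 CPM in control myoblasts, at 291, 289 and 307 CPM with siRNA 1 and at 168, 184 and 185 CPM with siRNA 2, a difference between the siRNAs of −0.72 on the log2 scale. Macf1 in myotubes was at 3150, 3230 and 2660 CPM in control libraries, at 3190, 2870 and 2890 CPM with siRNA 1 and at 1780, 1880 and 1880 CPM with siRNA 2. It fell by 0.71 (SE 0.07, adjusted p 2.57e-05) with siRNA 2, and differed by −0.7 from siRNA 1. Sorbs2 was higher with siRNA 2 than with siRNA 1 in myoblasts (0.47) and lower in myotubes (−0.48).

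Of 41 adhesion and axon guidance genes in myoblasts, 10 were higher and 2 lower with siRNA 2 than with siRNA 1. Over all genes 12.1% were higher and 14.3% lower. Plxdc2, a plexin-domain receptor, was at 1.57 ± 0.409 CPM with siRNA 1 and 3.34 ± 0.217 with siRNA 2 (1.08), and Plxna4, a semaphorin receptor, at 0.755 ± 0.175 and 1.46 ± 0.246 CPM (0.95). In myotubes Kcnh1, a potassium channel, was lower with siRNA 2 (log2 difference −1.84), and the call ended without siRNA 1 replicate 1 or siRNA 2 replicate 3 (adjusted p up to 0.0617). Cpa6, a carboxypeptidase, and Pdzd2, a PDZ-domain protein, were both higher with siRNA 2 by 1.16.

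A list of 45 genes that act on the transcription of long genes (topoisomerases, elongation factors, cyclin-dependent kinases of polymerase II, histone chaperones and lysine 36 methyltransferases) was read beside these results. With each siRNA in myoblasts Cdk13, Ell2 and Aff4 rose and 3 fell, among them Top1 and Rtf1, where 7.69% of all genes rose and 4.25% fell. Aff4, the scaffold of the super elongation complex, rose from 179 ± 6.94 to 273 ± 5.81 and 290 ± 6.75 CPM (0.61 and 0.7, adjusted p 2.15e-07 and 2.07e-08), and Ell2, an elongation factor, from 19.3 ± 0.459 to 28.8 ± 1.78 and 31 ± 1.79 CPM. Top1, topoisomerase I, fell from 176 ± 3.8 to 133 ± 0.789 and 165 ± 1.69 CPM (−0.41 and −0.09).

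In myotubes no gene of that list rose with each siRNA and 6 fell, namely Top2a, Cdk12, Supt16, Xrn2, Nsd2 and Nsd3, where 7.14% of all genes rose and 6.27% fell. Top2a, the topoisomerase II of dividing cells, fell from 115 ± 5.43 to 71.8 ± 3.05 and 76.9 ± 1.93 CPM (−0.67 and −0.58, adjusted p 4.13e-06 and 1.66e-06). Nsd2, a lysine 36 dimethyltransferase, fell from 98.4 ± 1.08 to 87.9 ± 5.13 and 72.5 ± 1.38 CPM, and the polymerase II kinase gene Cdk12 from 74.1 ± 2.11 to 66.6 ± 2.21 and 66.3 ± 0.331 CPM. Whether these levels bear on the very long genes was not tested.

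Span within the very long class was weakly related to the depletion results. Spearman correlations of span with log2 fold change across tested members were −0.001 and 0.099 in myoblasts (300 genes) and 0.062 and 0.11 in myotubes (331 genes) for siRNA 1 and 2. These are descriptions across genes measured in the same libraries. Of the longest reliably counted members, Ptprd rose with each siRNA in myoblasts, and Dlg2, a synaptic scaffold of 1973 kb, went from 0.109 ± 0.0785 to 6.38 ± 0.517 CPM between the stages. Macrod2, an ADP-ribose hydrolase gene of 1998 kb, stayed below 1 CPM on average in all groups.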

How the data were processed

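The deposited tables, 1 per stage, hold estimated counts and TPM per transcript in 18 polyA RNA libraries. The authors' processing notes name mm10 and DESeq2. Neither the quantifier nor the strandedness is stated in the labels or headers, and reads of antisense and overlapping genes may not be separable. Of 115088 transcripts, 114200 matched GENCODE M21. The 888 others held 0.16 to 0.24% of counts and were dropped. Gene sums of the transcript counts were rounded to whole numbers. edgeR 4.0.16 (R 4.3.3; quasi-likelihood test, TMM scaling, filterByExpr with a minimum count of 10) was fitted per stage with 6 residual degrees of freedom, and over all libraries with 12 for stage and stage difference. P-values were Benjamini-Hochberg adjusted over all genes, with a threshold of 0.05. Depth limits precision: low genes rest on few counts. On simulated counts with 200 changed genes among 15586, the myoblast siRNA 1 test recovered 76% of those changed by 1 and 52% of those changed by 0.5 (log2), with 15 false calls. The real comparison called 3122 genes, and the simulation held no prefix effect, so these rates need not hold for the data. CPM are on the TMM scale of all 18 libraries.

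Alternatives were DESeq2 1.42.0, limma 3.58.1 on log2(TPM + 0.1) for genes of at least 0.5 TPM in 3 libraries, other scaling, no filter, prefix or replicate terms, stricter member rules and leaving out each library. P-values measure the spread between libraries, and the labels do not say whether these came from separate cultures.

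1 column name has SETD3 where the sample's label has SETD2. It is myoblast siRNA 2 replicate 3, and the 3 libraries of that group held Setd2 at 39.3 to 45.0 CPM, against 97.7 to 118 in control myoblasts.

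Members and lists were chosen with earlier results of these data known. Named genes were those called with each siRNA (up to 8 each way per stage by the smaller fold change), the 8 largest rises and falls between stages, the 5 largest stage differences, the 8 highest by TPM, the 5 longest, the 3 nearest 300 kb on either side, the 3 highest per role, the 3 largest differences between siRNAs per stage, and the list genes called with each siRNA. Others were chosen after their values were seen. Deviations of same-numbered libraries correlated at −0.507 to 0.695, not above 0.1 in every pair, so the numbers were not taken as pairs. In myoblasts, libraries sharing a name prefix correlated at 0.194 to 0.695 and others at −0.733 to −0.295. Promoter windows are 250 bases from RefSeq, matched for 415 members, and transcripts within 1000 bases of a start were assigned to it. Some genes counted among those called are not reported here by name.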

Additional observations from a re-analysis of the deposited data

Results flagged for a closer look

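The mean effect of both Setd2 siRNAs differed between myotubes and myoblasts, by a test of the difference itself, in 96 of 346 members (27.7%). It was higher in myotubes in 9.83% and lower in 17.9%. Over all 16930 genes tested 10.6% were higher and 12.8% lower, and 30.4% of genes of 20 to 50 kb were called. Of the named genes, 34 are among the 96. Values are log2 effects in myotubes minus those in myoblasts, from the fit of all libraries. A negative value means that the effect was lower in myotubes. Each value averages both siRNAs, which did not always act alike. Mad1l1, Rere, Ltbp1 and Macf1 fell in myoblasts with siRNA 2 and passed no test there with siRNA 1. In myotubes Rere rose with siRNA 1 and fell with siRNA 2, and Sorbs2 differed between the siRNAs in both stages. Low-level genes had the largest values, with Atp8a2 at 2.75, Reln at 2.36, Macrod2 at 1.79, Dner at 1.65 and Pdzd2 at 1.36 above, and Gm45062 at −2.28 below. All of these but Pdzd2 are on the list of named genes as the 5 largest differences in this same test, so their place here adds no support. Macrod2 ended as a call without any 1 of 11 libraries, and Dner without myoblast control replicate 1, myotube control replicate 2 or 3 or myotube siRNA 1 replicate 3.

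Among adhesion, matrix and sulfation genes the values were −1.48 for Ndst4, −1.18 for Cdh18, −0.98 for Ust, −0.66 for Ptprd, −0.53 for Gpc6 and −0.46 for Csgalnact1, and on the other side 0.36 for Ltbp1, 0.27 for Adgrl3 and 0.15 for Ptprk. Among cytoskeletal genes they were −0.58 for Diaph3, −0.51 for Palld, −0.43 for Sorbs2 and −0.24 for Macf1. Among signalling genes Arhgap6 stood at 1.45, Pde10a at −0.57, Sh3kbp1 at −0.18 and Snd1 at −0.17. Among regulators of transcription and RNA, Zfpm2 stood at −0.82, Rere at 0.39, Dis3l2 at 0.24 and Rbms3 at −0.21. The others were Mad1l1 at 0.56, Pola1 at −0.41, Slc7a11 at −0.29, Gse1 at 0.27, Cask at 0.17, Fto at 0.17 and Pam at 0.14. The calls of Cask, Ptprk, Macf1, Pam, Rbms3 and Sh3kbp1 ended when certain single libraries were left out, with adjusted p up to 0.0951, 0.116, 0.0797, 0.101, 0.0537 and 0.0822.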

How the results depend on the processing

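Of 291 calls on named genes, 198 held under every alternative that gave a value and 224 under every such one other than leaving out a library. The model with the library prefix covered 220 calls and kept 219, since the comparison between stages was not fitted with it. Most named genes were picked for being called. The only reversed value was that of Prkca between the stages, −0.04 on the TPM scale (adjusted p 0.498) against 0.27. DESeq2 kept 280 of 284 and limma on log2(TPM + 0.1) 209 of 267. With the library prefix in the model, calls in myoblasts were 110 with siRNA 1, 140 with siRNA 2, 65 with each and 128 between siRNAs, against 67, 82, 31 and 78. With limma on log2(TPM + 0.1) they were 34 with siRNA 1, 14 with each and 50 between siRNAs in myoblasts, and 57 with siRNA 1 and 33 with each in myotubes, against 109 and 60. The replicate block gave 52 calls with each siRNA in myoblasts and moved no other count by over 1.5 times. For members of 500 kb or more the calls were 24 (siRNA 1), 24 (siRNA 2), 12 (each) and 15 (between siRNAs) in myoblasts, 39, 45, 21 and 26 in myotubes, 97 between stages and 30 for the stage difference, from 97, 108 and 114 genes tested. For members with at least 50% of counts in transcripts of 300 kb or more they were 53 (siRNA 2) and 20 (each) in myoblasts. Fewer genes were tested in both cases. Causes of the other changes were not tested.

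The median difference from genes of 20 to 50 kb was 0.438 (TPM scale) and 0.607 (no bins) between stages, 0.062 (prefix) and 0.03 (TPM scale) for siRNA 1 and 0.057 (TPM scale) and 0.082 (no bins) for siRNA 2 in myoblasts, and 0.044 (TPM scale) and 0.039 (no bins) for siRNA 1 and 0.052 (prefix) for siRNA 2 in myotubes. Leaving out 1 library gave 0.462 to 0.522, 0.044 to 0.077, 0.068 to 0.089, 0.061 to 0.094 and 0.015 to 0.047 in that order. It gave 43 to 72, 69 to 95, 24 to 34 and 57 to 82 calls in myoblasts (siRNA 1, siRNA 2, each, between siRNAs), 68 to 124, 98 to 146, 43 to 73 and 61 to 100 in myotubes, 284 to 300 between stages and 80 to 110 for the stage difference.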
